A study of Saccharomyces cerevisiae with 12 samples.

Results

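The genes of 7 general regulatory factors, REB1, RAP1, ABF1, CBF1, MCM1, TBF1 and SPT15, were examined in nucleosome maps of Saccharomyces cerevisiae BY4741, a laboratory strain of budding yeast. Members were chosen by gene, and every called nucleosome from 800 bp before the start codon to the stop codon was taken. This gave 659 of the 458552 entries listed on chromosomes I to XVI in 6 maps. All groups grew in YPD at 30 °C to mid-log phase, and spheroplasts were digested with micrococcal nuclease at 600, 1200 or 2400 gel units per ml. Of the 6 groups, WT1, WT2 and WT3 were wild type, Ioc3-KO lacked IOC3, and Ioc3-R739E/R742E and Ioc3-Q251K/D252K carried changes in Ioc3, a subunit of the chromatin remodeler ISW1a. Each group had 2 biological replicates (12 samples), whose reads were joined in 1 list per group, called a pool here. Every wild-type mean therefore rests on n = 3 pools, and every Ioc3 genotype on n = 1 pool with no replicate error of its own.

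General regulatory factors are abundant DNA-binding proteins whose sites lie in promoters, where they help to keep nucleosomes away from the DNA. Reb1, Abf1 and Rap1 bind upstream of many housekeeping and ribosomal protein genes, Rap1 and Tbf1 also act at telomeres and subtelomeres, Cbf1 binds at centromeres and methionine genes, and Mcm1 is a MADS-box factor of cell-type and cell-cycle genes. Spt15 is the TATA-binding protein, which nucleates the transcription machinery. ISW1a, made of the ATPase Isw1 and Ioc3, slides and spaces nucleosomes next to promoters. The maps of these 7 genes show the chromatin of the factors' own genes, not the binding of the factors.

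The genes lie apart from each other on 7 chromosomes of sacCer3. REB1 (YBR049C) spans 334386 to 336818 on chromosome II, minus strand, and RAP1 (YNL216W) spans 241689 to 244172 on chromosome XIV, plus strand. ABF1 (YKL112W) spans 226570 to 228765 on chromosome XI, plus strand, CBF1 (YJR060W) 548759 to 549814 on chromosome X, plus strand, and MCM1 (YMR043W) 353871 to 354731 on chromosome XIII, plus strand. TBF1 (YPL128C) spans 306533 to 308221 on chromosome XVI, minus strand, and SPT15 (YER148W) 465303 to 466025 on chromosome V, plus strand. These are coding spans from start to stop codon, since the annotation used holds no UTR. ABF1 and SPT15 face a divergent neighbour, RAD27 at 694 bases and SCC4 at 460 bases between coding regions. The others follow a gene on the same strand: REG2 lies 364 bases before REB1, PPN2 377 bases before RAP1, PTK2 515 bases before CBF1, HHO1 606 bases before TBF1, and ARG80, the paralog of MCM1, 734 bases before MCM1.

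Across the series, pools held 75746 to 77288 entries and 10281474 to 10347642 assigned reads, and 134 to 139 reads in the median nucleosome. The median peak height, the authors' track at the summit on a scale that is not stated, was 1.44 to 1.47 in wild type and 1.34 to 1.40 in the Ioc3 pools. The median fuzziness, the standard deviation of read positions within a nucleosome, was 31.5 to 31.9 bp in wild type and 32.3 to 33.3 bp in the Ioc3 pools. IOC3 itself held 16 to 18 entries and 2392 to 2570 reads in wild type, against 5 entries and 825 reads in Ioc3-KO. The 7 genes held 106 to 114 entries per pool, from 9 or 10 at SPT15 to 21 to 23 at REB1.

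In wild type all 7 genes had a wide gap between 2 nucleosomes in front of the coding region. The upstream one of these is called -1 and the one at the gene is called +1, and +2, +3 and +4 follow into the gene. Inside the gap stood a very weak call, with a peak height of 0.06 to 0.25 in the wild-type pools that had one. Entries below 0.25 of the pool median were therefore set aside when the gap was measured, a choice made after these values were seen. REB1 had the widest gap, 419, 417 and 418 bp from -1 to +1 in WT1, WT2 and WT3 (418 ± 1.0 bp, SD, n = 3). Of 5059 genes measured the same way, 95.1% had a narrower gap than REB1, and the median was 273 bp. ABF1 followed with 372, 372 and 379 bp (374 ± 4.0 bp), TBF1 with 360, 361 and 361 bp (361 ± 0.58 bp) and RAP1 with 348, 344 and 351 bp (348 ± 3.5 bp). These 3 gaps were wider than those of 91.6%, 90.3% and 88.8% of genes. MCM1 measured 321, 317 and 327 bp (322 ± 5.0 bp) and CBF1 313, 318 and 333 bp (321 ± 10.4 bp), 2 gaps that do not differ beyond their spread. SPT15, the gene of the TATA-binding protein, had the narrowest, 295, 293 and 298 bp (295 ± 2.5 bp), wider than 72.0% of genes.

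**Figure D1:**
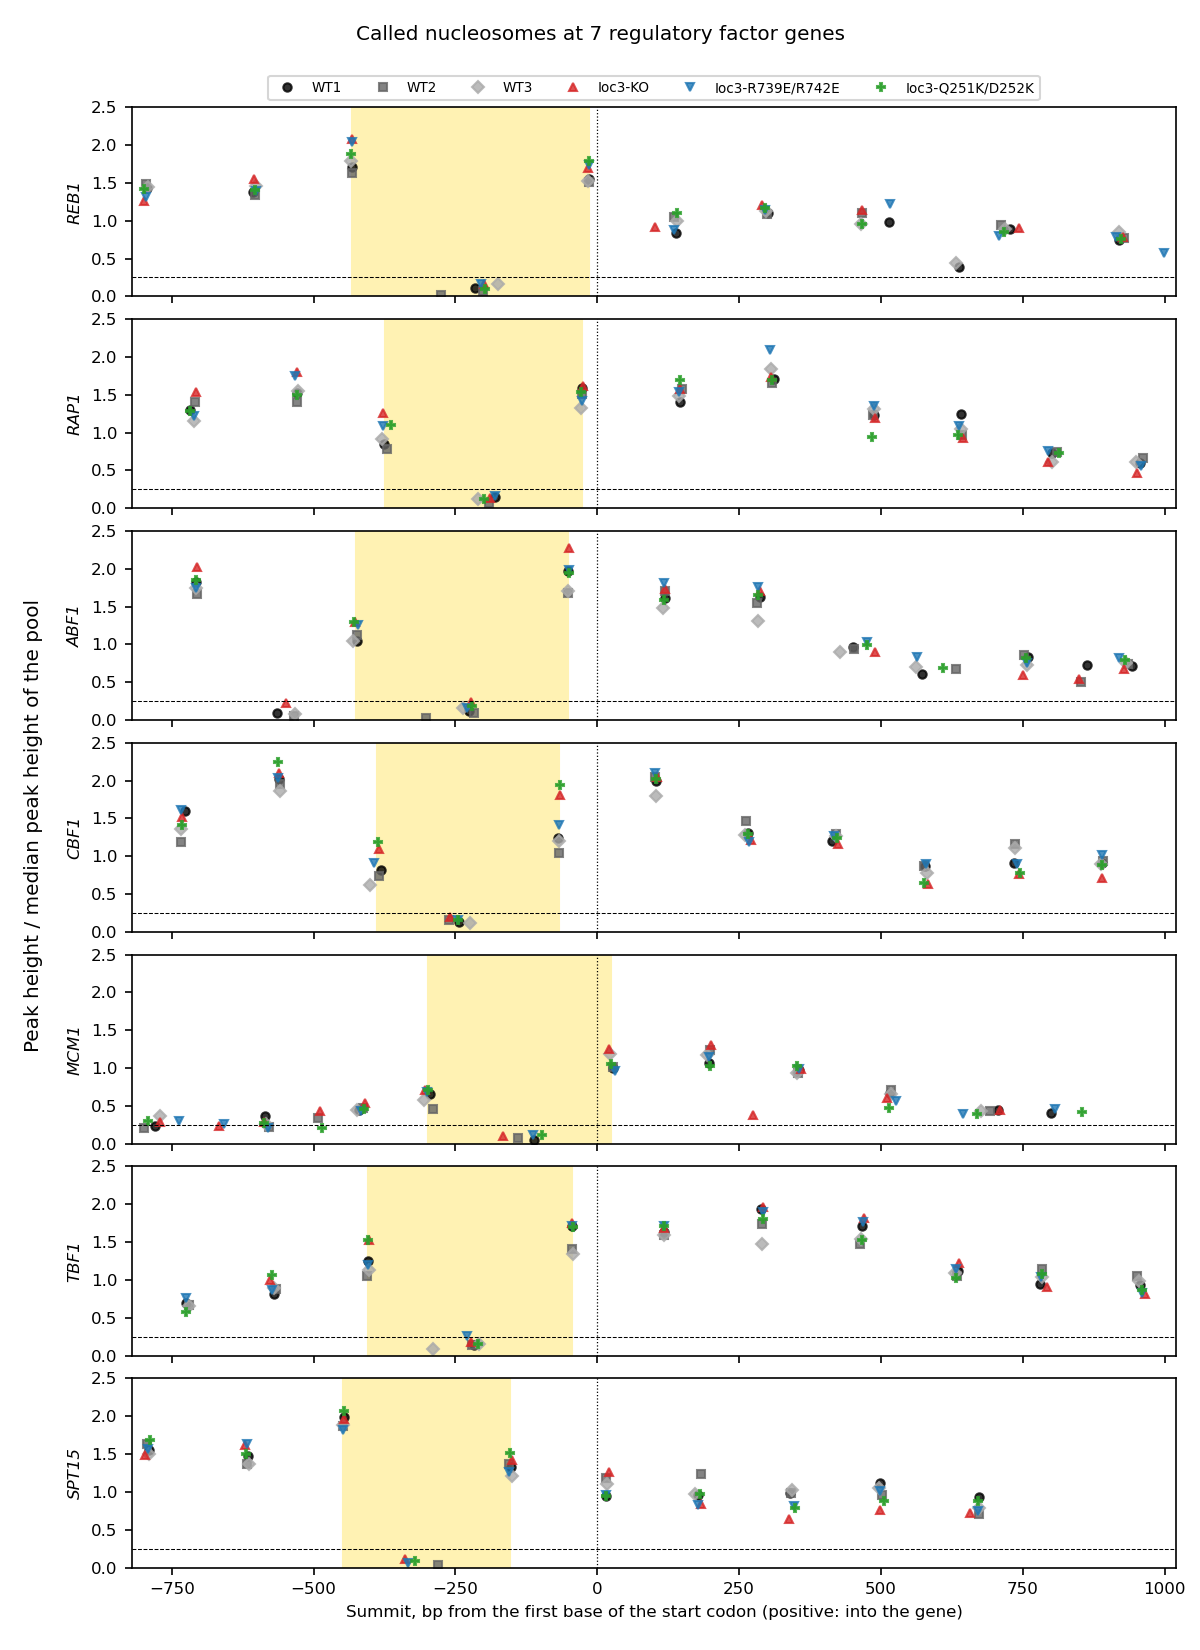
Every called nucleosome of the 7 genes up to 1000 bp into the gene, by its summit in bp from the start codon (x) and its peak height over the median of its pool (y), with 1 symbol per pool. The shaded span runs from the -1 to the +1 consensus nucleosome, the dashed line marks 0.25 of the pool median, and in each gene the weak calls in the shaded span lie near or under that line.

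The weak calls held few reads. Only reads of listed entries were counted, so 0 reads means that a pool listed no entry in the gap, not that the gap was free of reads. At REB1 the gap held 13, 16 and 30 reads in WT1, WT2 and WT3, 23 in Ioc3-KO, 20 in Ioc3-R739E/R742E and 17 in Ioc3-Q251K/D252K. At SPT15 it held 0, 7 and 0 reads in wild type, against 12, 9 and 8 reads in the 3 Ioc3 pools, so that each Ioc3 pool exceeded each wild-type pool. The exact 95% Poisson limits of these counts, which cover counting error only, overlapped between the pool with 7 reads (2.81 to 14.4) and the Ioc3-KO pool (6.20 to 21.0). MCM1 held 12, 16 and 0 reads in wild type and 33, 22 and 22 in the Ioc3 pools, and again each Ioc3 pool exceeded each wild-type pool. The Poisson limits of WT2 there (9.15 to 26.0) overlapped those of Ioc3-KO (22.7 to 46.3) and of both point mutants (13.8 to 33.3). Over all 5059 genes, 6.76% held more gap reads in each Ioc3 pool than in any wild-type pool, as did 13.5% of the 1417 genes with a gap at least as wide as that of SPT15. At ABF1 the gap held 18, 21 and 23 reads in wild type against 30, 19 and 27, and the groups overlapped. CBF1 (18 to 26 against 20 to 30 reads), RAP1 (13 to 21 against 15 to 23 reads) and TBF1 (16 to 36 against 15 to 33 reads) overlapped as well. Summed over the 7 gaps the reads were 104, 110 and 128 in wild type and 168, 151 and 124 in Ioc3-KO, Ioc3-R739E/R742E and then Ioc3-Q251K/D252K. Over all genes the median per gap was 4 to 6 reads in wild type and 11, 10 and 8 in the Ioc3 pools. Among the 1417 genes with a gap at least as wide as that of SPT15, the median was higher. It was 19, 16 and 18 reads per gap in wild type and 23, 21 and 21 in the Ioc3 pools. A call in the gap in every pool occurred in 26.8% of all genes and in 70.1% of those with a gap at least as wide as that of SPT15.

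No change in the width of the gaps was called. In Ioc3-KO the 7 gaps measured 415 bp (REB1), 377 bp (ABF1), 359 bp (TBF1), 353 bp (RAP1), 324 bp (MCM1), 319 bp (CBF1) and 296 bp (SPT15), within 6 bp of the wild-type mean in each case. The largest difference was at RAP1 in Ioc3-Q251K/D252K, 334 bp against 344 to 351 bp in wild type, a difference of -13.7 bp (SE 3.52, limma, adjusted p = 0.656). No member was called by limma in any of the 3 genotypes or in all Ioc3 pools against wild type (adjusted p under 0.05 over 5059 genes, of which 0%, 0%, 0% and 0.158% were called). At an unadjusted p under 0.05, 1 of 7 members passed in Ioc3-Q251K/D252K and 0 in the other 3 comparisons, beside 9.01%, 9.41%, 7.31% and 12.1% of all genes in the same order. When weak calls were kept, only REB1 and ABF1 had a gap of at least 200 bp, and neither was called among 1911 genes, of which 0.0523% were called in all Ioc3 pools and 0% in each genotype. Neither passed at an unadjusted p under 0.05, beside 9.58%, 8.48%, 7.48% and 10.3% of these genes.

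**Figure D2:**
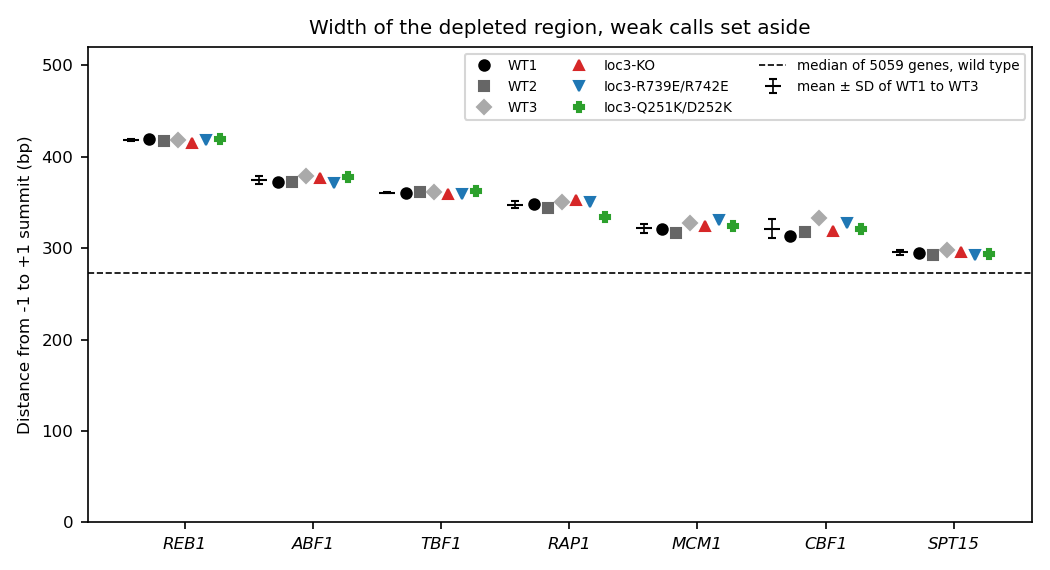
Distance in bp between the -1 and +1 summits of each gene in each pool, ordered by the wild-type mean. The bars at the left of each gene are the mean ± SD of the 3 wild-type pools, and the dashed line at 273 bp is the median of 5059 genes; all pools of all 7 genes lie above it.

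The place of the +1 nucleosome relative to the start codon varied among the genes more than among the pools. In bp from the start codon, its consensus dyad lay at -15 at REB1, -27 at RAP1, -44 at TBF1, -51 at ABF1, -67 at CBF1 and 25 at MCM1, against a median of -12 over genes. SPT15 stood apart at -153 bp, so that its +2, 17 bp after the start codon, was the first nucleosome centred in the coding region. At SPT15 the summits of +1 were -152, -156 and -150 in wild type and -151, -155 and -153 in Ioc3-KO, Ioc3-R739E/R742E and then Ioc3-Q251K/D252K. At TBF1 they were -44, -45 and -42 and then -44, -45 and -42, the same values in both sets. Over the 7 genes the +1 of Ioc3-KO lay between -4.33 and 2.67 bp of the wild-type mean, that of Ioc3-R739E/R742E between -2.33 and 5.67 bp and that of Ioc3-Q251K/D252K between -1.33 and 2.0 bp. The -1 nucleosomes of REB1 (-432 to -434), TBF1 (-403 to -406) and SPT15 (-447 to -449) kept their summits within 3 bp over all 6 pools, while those of CBF1 ranged from -401 to -382 and those of RAP1 from -380 to -363.

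The -1 nucleosome stood higher in the Ioc3 pools at most of the genes. At RAP1 its peak height was 1.23, 1.16 and 1.33 in WT1, WT2 and WT3, 1.68 in Ioc3-KO, 1.53 in Ioc3-R739E/R742E and 1.55 in Ioc3-Q251K/D252K. At CBF1 it was 1.17, 1.08 and 0.90 in wild type and 1.47, 1.28 and 1.67 in the same 3 genotypes, without overlap. REB1 had 2.46, 2.40 and 2.59 against 2.80, 2.87 and 2.64, ABF1 1.51, 1.66 and 1.52 against 1.74, 1.76 and 1.81, and MCM1 0.94, 0.68 and 0.84 against 0.95, 0.97 and 1.00. At these 5 of 7 genes the lowest Ioc3 pool exceeded the highest wild-type pool, also when heights were divided by the pool median. This separation was found in 31.8% of the 5073 genes with a matched -1 nucleosome. At TBF1 the heights were 1.80, 1.55 and 1.64 in wild type and 2.05, 1.69 and 2.15, with Ioc3-R739E/R742E inside the wild-type range. SPT15, whose -1 lies close to the start codon of SCC4, had 2.87, 2.77 and 2.73 against 2.63, 2.56 and 2.89, and the groups overlapped.

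No -1 nucleosome of the 7 genes was called. On the log2 scale of height over the pool median, the difference of all Ioc3 pools from wild type was 0.55 at CBF1 (SE 0.131, limma, adjusted p = 0.0938) and 0.42 at RAP1 (SE 0.106, limma, adjusted p = 0.102). The other 5 ranged from 0.01 at SPT15 to 0.32 at MCM1, with adjusted p from 0.235 to 0.973 (limma). The median over the 7 genes was 0.33 in Ioc3-KO, 0.25 in Ioc3-R739E/R742E and 0.35 in Ioc3-Q251K/D252K, where the median of all genes was 0.23, 0.10 and 0.17. On heights as deposited the members' medians were 0.23, 0.21 and 0.30.

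At CBF1 the nucleosomes on both sides of the gap were higher in all 3 Ioc3 pools. Its +1 nucleosome measured 1.80, 1.54 and 1.75 in wild type, 2.43 in Ioc3-KO, 1.98 in Ioc3-R739E/R742E and 2.71 in Ioc3-Q251K/D252K, and the reads were 126, 111 and 120 against 175, 137 and 194. Every Ioc3 pool was above every wild-type pool, as at the +1 of REB1 (2.24, 2.23 and 2.21 against 2.28, 2.43 and 2.50) and of no other member. Over all genes 31.9% of 5086 matched +1 nucleosomes were separated in this way. In Ioc3-Q251K/D252K the CBF1 +1 difference was 0.73 (log2, SE 0.155, limma, adjusted p = 0.0696) and the -1 difference 0.72 (log2, SE 0.173, limma, adjusted p = 0.106), while +2 (2.87, 3.02 and 2.61 against 2.75, 2.94 and 2.82) overlapped. Without nucleosomes of fewer than 20 reads in a pool, both differences passed in Ioc3-Q251K/D252K, with adjusted p of 0.0287 at +1 and 0.0449 at -1 (limma). They also passed without WT1, with adjusted p of 0.0349 and 0.0334 (limma).

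**Figure D3:**
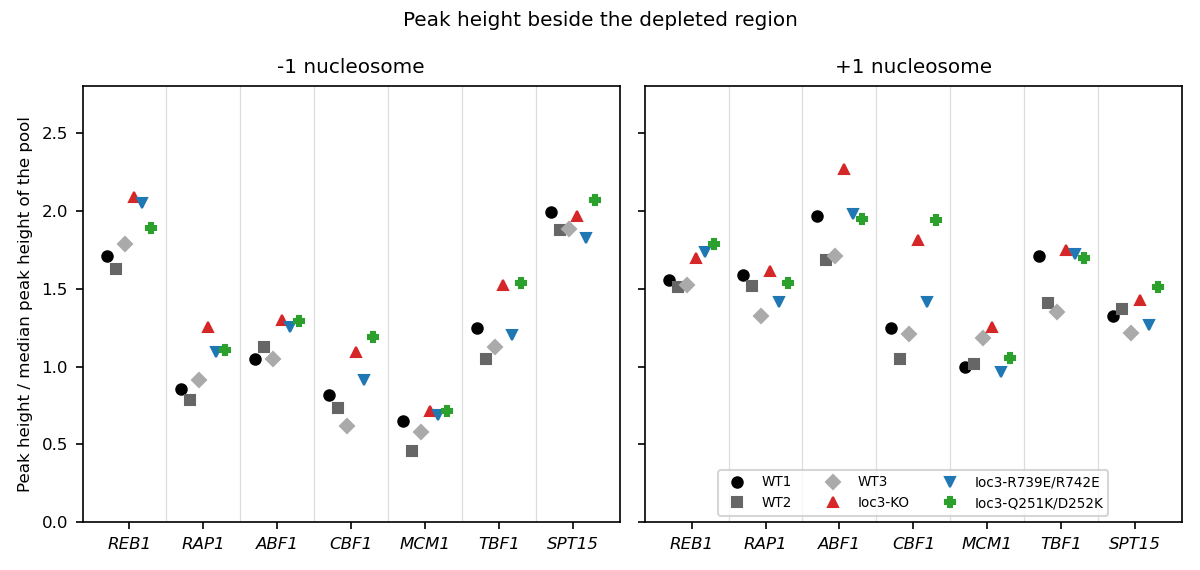
Peak height over the pool median of the -1 nucleosome (left) and the +1 nucleosome (right) of each gene, 1 symbol per pool. At -1 the 3 coloured Ioc3 symbols lie above the 3 grey or black wild-type symbols at REB1, RAP1, ABF1, CBF1 and MCM1, and at +1 at REB1 and CBF1.

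Over whole windows, 105 consensus nucleosomes fell on the 7 genes and 99 of them were matched in all 6 pools within 70 bp. In height, 15 of these 99 had all 3 Ioc3 pools above all 3 wild-type pools and 12 had them below, where 13.5% and 8.14% of 67770 matched nucleosomes were. None of the 99 was called in height by limma in Ioc3-KO, Ioc3-R739E/R742E, Ioc3-Q251K/D252K or all Ioc3 pools, where 0.162%, 0.0162%, 0.767% and 0.345% of 67769 nucleosomes were called. At an unadjusted p under 0.05, 14, 5, 14 and 17 of 99 passed, beside 17.0%, 6.49%, 12.5% and 16.7% of all.

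Among the members with lower heights was SPT15. Its +4 nucleosome, 343 bp into the gene, measured 1.42, 1.45 and 1.49 in wild type and 0.86, 1.15 and 1.09 in Ioc3-KO, Ioc3-R739E/R742E and then Ioc3-Q251K/D252K, without overlap. The difference in Ioc3-KO was -0.66 (log2, SE 0.141, limma, adjusted p = 0.0916), and its adjusted p was 0.0467 without nucleosomes of fewer than 20 reads in a pool. The next nucleosome, at 500 bp, had a height of 1.61, 1.41 and 1.53 in wild type and of 1.02, 1.43 and 1.23 in the Ioc3 pools. Its fuzziness was 28.3, 29.4 and 27.1 bp in wild type, 38.2 bp in Ioc3-KO, 33.4 bp in Ioc3-R739E/R742E and 29.0 bp in Ioc3-Q251K/D252K. In Ioc3-KO that fuzziness difference was 9.91 bp (SE 1.79, limma, adjusted p = 0.107), with an adjusted p of 0.0399 without nucleosomes of fewer than 20 reads and 0.0231 without WT2. At ABF1 the weak call in the gap, at -225 bp, had heights of 0.16, 0.14 and 0.22 in wild type and 0.33, 0.23 and 0.26 in the Ioc3 pools. Its difference in Ioc3-KO was 1.04 (log2, SE 0.234, limma, adjusted p = 0.102), and it passed without WT2 (0.87, adjusted p = 0.0293) and without WT3 (1.23, adjusted p = 0.00355). It rested on 13 to 30 reads in each pool.

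Positions are summits in bp from the start codon, positive into the gene. None of the 99 nucleosomes was called in position by limma, where 1.30% of 67769 were called in Ioc3-KO, 0% in Ioc3-R739E/R742E and in Ioc3-Q251K/D252K, and 0.184% in all Ioc3 pools. At an unadjusted p under 0.05, 15 of 99 passed in Ioc3-KO, 6 in Ioc3-R739E/R742E, 7 in Ioc3-Q251K/D252K and 12 in all Ioc3 pools, beside 18.1%, 8.58%, 8.83% and 12% of all. The error of the fits for single genotypes comes from 3 wild-type pools. In the fit of all Ioc3 pools it also holds the differences between the Ioc3 genotypes. With so few pools, a nucleosome that was not called is not shown to have kept its place. Summits outside the range of the 3 wild-type pools numbered 53 of 99 in Ioc3-KO and 45 of 99 in each of the other genotypes, against 60.7%, 49.4% and 49.0% of all matched nucleosomes. Member by member, the median shift of coding nucleosomes in Ioc3-KO was 5.0 bp at MCM1, 4.67 bp at CBF1, 4.5 bp at TBF1, 0.0 bp at SPT15, -0.67 bp at ABF1, -3.0 bp at RAP1 and -4.67 bp at REB1, beside -0.33 bp over all coding nucleosomes.

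The REB1 +2 nucleosome had the smallest adjusted p of any member in position. Its summit lay 139, 135 and 141 bp into the gene in WT1, WT2 and WT3, at 102 bp in Ioc3-KO, at 135 bp in Ioc3-R739E/R742E and at 140 bp in Ioc3-Q251K/D252K. In chromosome II coordinates of the files, these were 336679 in WT1 and 336716 in Ioc3-KO. Only the Ioc3-KO summit was outside the wild-type range in the upstream direction, and it differed from wild type by -36.3 bp (SE 3.19, limma, adjusted p = 0.0648). The mean read position moved less, from 127, 131 and 135 bp in wild type to 111 bp in Ioc3-KO, each with a counting error of 2.58 to 3.03 bp. That difference was -19.8 bp (SE 4.18, limma, adjusted p = 0.153). Adjusted within 1 nucleosome number at a time, the summit of REB1 was called (SE 2.99, limma, adjusted p = 0.0466). This alternative, added after the data were seen, numbered nucleosomes with weak calls kept. That numbering covered 2066 genes and, of the members, only REB1 and ABF1. Ioc3-KO also differed from the other genotypes there, by 33.0 bp from Ioc3-R739E/R742E (SE 3.90, limma, adjusted p = 0.139) and by 38.0 bp from Ioc3-Q251K/D252K (SE 3.90, limma, adjusted p = 0.113). Over all 67769 nucleosomes none was called in these 2 contrasts or between the point mutants, and 11.5%, 11.5% and 7.35% had an unadjusted p under 0.05, as did 12, 10 and 7 of the 99. The reads under REB1 +2 were 135, 159 and 138 in wild type and 138, 134 and 147 in the Ioc3 pools, and the heights of 1.23, 1.24 and 1.54 lay within the wild-type range of 1.21 to 1.54. Neither neighbour moved as far: +1 was at -17 bp in Ioc3-KO against -14 to -16 bp, and +3 at 291 bp against 297 to 301 bp.

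**Figure D4:**
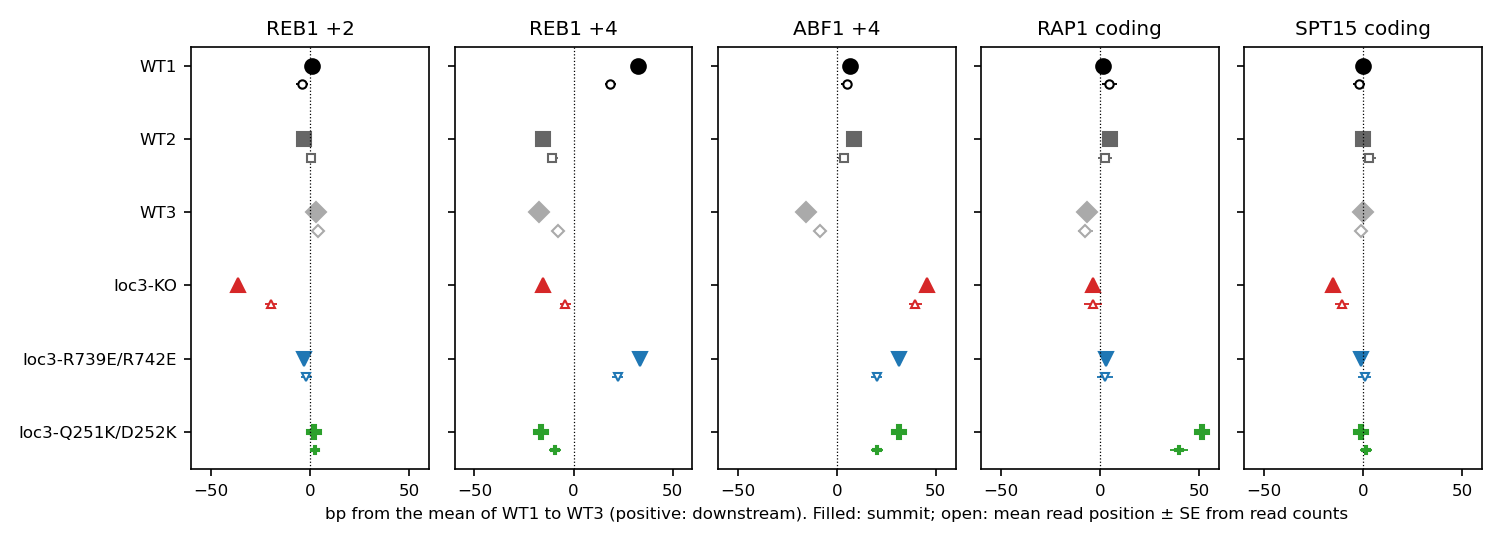
Position of 5 nucleosomes in each pool, in bp from the mean of the 3 wild-type pools, with filled symbols for the summit and open symbols for the mean read position ± its standard error from read counts. The panels show REB1 +2, where only Ioc3-KO lies away from 0, REB1 +4, where WT1 and Ioc3-R739E/R742E lie apart, ABF1 +4, RAP1 at 956 bp and SPT15 at 670 bp.

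Further into REB1, summits split between 2 places in a way that crossed the groups. Its +4 nucleosome lay at 515 bp in WT1 and 516 bp in Ioc3-R739E/R742E, but at 465 to 467 bp in the other 4 pools. An additional entry at 637 bp in WT1 and 633 bp in WT3 had no counterpart in the other pools. At 1811 bp the summit was at 1814, 1807 and 1805 bp in wild type, 1852 bp in Ioc3-KO, 1815 bp in Ioc3-R739E/R742E and 1814 bp in Ioc3-Q251K/D252K. The Ioc3-KO difference was 43.3 bp (SE 4.62, limma, adjusted p = 0.085), on heights of 0.70 to 0.97. In Ioc3-Q251K/D252K the largest shift in REB1 beyond the wild-type range was -41.0 bp at 1474 bp (SE 7.72, limma, adjusted p = 0.377).

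ABF1 held the only one of the 99 whose summit lay more than 25 bp downstream of the wild-type mean in all 3 Ioc3 pools. Its +4 was at 450, 452 and 428 bp in wild type, 489 bp in Ioc3-KO and 475 bp in both point mutants, without overlap. The difference of all Ioc3 pools was 36.3 bp (SE 7.83, limma, adjusted p = 0.286), and by mean read position it was 26.7 bp (SE 6.65, limma, adjusted p = 0.299). The nucleosome was broad, with a fuzziness of 34.1 to 35.7 bp in wild type and 37.6 to 40.2 bp in the Ioc3 pools. The following call, 568 bp into the gene, was not matched in Ioc3-KO. The mean distance from +1 to +4 was 167, 168 and 160 bp per step in wild type and 180, 175 and 175 bp in the Ioc3 pools.

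RAP1 and SPT15 each held a coding nucleosome that lay elsewhere in 1 genotype, by more than 10 bp. At RAP1 the nucleosome at 956 bp was at 957, 961 and 949 bp in wild type, 952 bp in Ioc3-KO, 959 bp in Ioc3-R739E/R742E and 1007 bp in Ioc3-Q251K/D252K. The last differed from wild type by 51.3 bp (SE 5.85, limma, adjusted p = 0.200). At SPT15 the nucleosome at 670 bp was at 672 bp in each of the 3 wild-type pools, at 657 bp in Ioc3-KO and at 671 bp in both point mutants. The Ioc3-KO difference was -15.0 bp (SE 1.46, limma, adjusted p = 0.0753), and by mean read position it was -10.8 bp (SE 3.25, limma, adjusted p = 0.229). In Ioc3-KO the largest shift in RAP1 beyond the wild-type range was -13.7 bp at 1444 bp (SE 3.32, limma, adjusted p = 0.205). In Ioc3-R739E/R742E it was -10.3 bp at 802 bp (SE 4.80, limma, adjusted p = 0.654). The mean step from +1 to +4 of RAP1 was 171 to 172 bp in all 6 pools.

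At the remaining genes the largest Ioc3-KO differences outside the wild-type range ran from 8.33 to 18.0 bp. The largest such difference at CBF1 was 8.33 bp at +3, from 265, 262 and 261 bp to 271 bp (SE 2.42, limma, adjusted p = 0.246). At TBF1 it was 11.7 bp at 958 bp, from 957, 951 and 955 bp to 966 bp (SE 3.19, limma, adjusted p = 0.237). At MCM1 it was 18.0 bp at 691 bp (SE 14.5, limma, adjusted p = 0.577), a weak nucleosome of height 0.54 to 0.65 whose wild-type summits ranged from 676 to 707 bp, and in Ioc3-R739E/R742E it differed by -48.0 bp (SE 14.5, limma, adjusted p = 0.555). The same MCM1 nucleosome differed by -23.0 bp in Ioc3-Q251K/D252K (SE 14.5). In the point mutants the largest differences outside the wild-type range were 4.33 bp (+3) and 9.33 bp (in the coding region beyond +4) at CBF1. At TBF1 they were -38.3 bp (1275 bp) and 5.67 bp (958 bp), and at SPT15 5.33 and 7.33 bp (both +4). Their adjusted p ran from 0.424 to 0.692 (limma). By mean read position these differences were 2.63 and 2.85 bp at CBF1, -26.0 and 3.52 bp at TBF1 and 2.39 and 7.58 bp at SPT15. Larger summit differences lay within the wild-type range at CBF1 and TBF1. At CBF1 they were -16.7 bp (at -248 bp, Ioc3-KO) and -4.67 bp (at -389 bp, Ioc3-R739E/R742E). The one at TBF1 was 14.7 bp (at 1275 bp, Ioc3-Q251K/D252K). CBF1 and MCM1 had mean steps of 161 to 163 bp and 163 to 165 bp over the 6 pools, TBF1 of 169 to 171 bp and SPT15 of 163 to 167 bp, beside a median of 165 to 166 bp over 4283 genes.

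**Figure D5:**
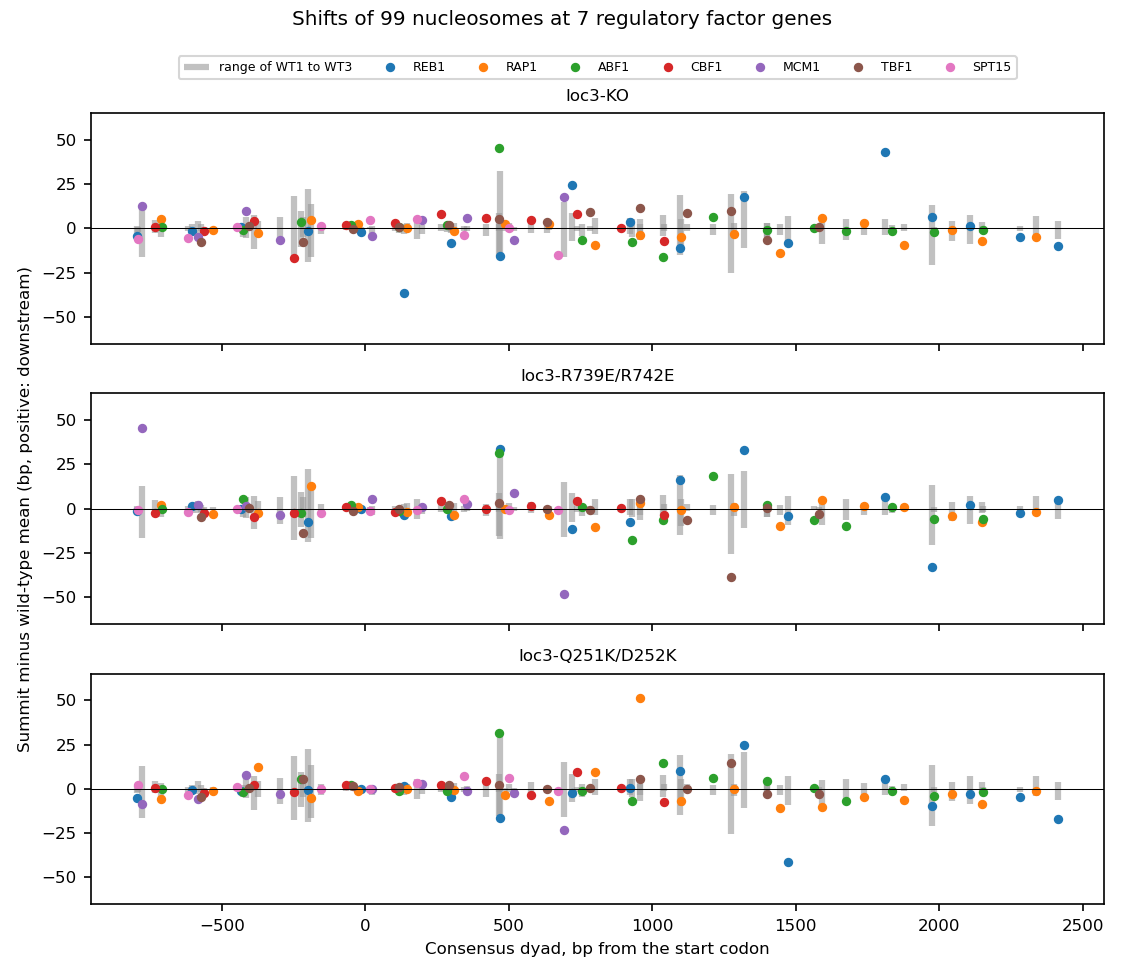
Summit minus wild-type mean in bp (y) for the 99 matched nucleosomes of the 7 genes by their distance from the start codon in bp (x), in Ioc3-KO, Ioc3-R739E/R742E and then Ioc3-Q251K/D252K, with grey bars for the range of the 3 wild-type pools. Most points lie near 0; the shifts beyond 25 bp include REB1 (136 and 1811 bp) and ABF1 (466 bp) in Ioc3-KO and RAP1 (956 bp) in Ioc3-Q251K/D252K.

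Fuzziness was higher in Ioc3-KO than the wild-type mean at 71 of 99 nucleosomes, by a median of 1.39 bp beside 1.20 bp over all nucleosomes. In Ioc3-R739E/R742E it was higher at 69 of 99 (median 0.75 bp beside 0.59 bp), and in Ioc3-Q251K/D252K at 51 of 99 (median 0.17 bp beside 0.33 bp). At +2 all 7 genes were fuzzier in Ioc3-KO, by 0.98 to 2.77 bp with a median of 1.44 bp, equal to the median of 1.44 bp over 4863 genes. None of the 99 was called by limma in Ioc3-KO, Ioc3-R739E/R742E, Ioc3-Q251K/D252K or all Ioc3 pools, where 0.00148%, 0%, 0.0103% and 0% of all were called. At an unadjusted p under 0.05, 15, 7, 12 and 14 of 99 passed beside 15.4%, 7.16%, 6.55% and 11.8% of all. Within all 7 genes, nucleosomes beyond +4 were lower and fuzzier than those near the start. In wild type the median height went from 2.15 over -1 and +1 to +4 to 1.15 beyond +4 at RAP1. It went from 1.62 to 0.93 at REB1, from 1.83 to 1.44 at CBF1 and from 1.38 to 0.64 at MCM1. Beyond +4 there was only 1 matched coding nucleosome at MCM1 and 2 at SPT15. TBF1 had the sharpest array, with a median fuzziness of 21.2 bp over -1 and +1 to +4, and REB1 the broadest with 32.8 bp.

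MCM1 differed from the others in having a poorly covered upstream region. Its 3 nucleosomes upstream of -1 had a median height of 0.41 in wild type, against 1.26 to 2.54 at the other 6 genes, and its -1 was the lowest of the 7. The reads of its whole window were 831, 834 and 809 in wild type, 1066 in Ioc3-KO, 916 in Ioc3-R739E/R742E and 897 in Ioc3-Q251K/D252K, all 3 above wild type. In Ioc3-KO the log2 difference was 0.35 (SE 0.0629, edgeR quasi-likelihood test, adjusted p = 0.169), and it was 0.48 (SE 0.134, edgeR, adjusted p = 0.339) over the 800 bp before the start codon alone. Over the whole window the Ioc3-KO pool listed 13 entries against 9 to 11 in wild type, and 3 of these were not in the consensus matching and held 235 reads. One of the 3 lay at 274 bp, between +2 at 201 bp and +3 at 359 bp, with 126 reads and a fuzziness of 52.6 bp. Without such extra entries the window held 758, 776 and 809 reads in wild type, 831 in Ioc3-KO, 790 in Ioc3-R739E/R742E and 775 in Ioc3-Q251K/D252K, so that both point mutants lay within the wild-type range. How reads mapping to more than 1 place were treated is not given in the sources used here, and MCM1 and ARG80 are paralogs. No member was called by window reads with edgeR in any genotype, where 0.05%, 0%, 1.00% and 0% of 5999 genes were called in Ioc3-KO, Ioc3-R739E/R742E, Ioc3-Q251K/D252K and all Ioc3 pools. At an unadjusted p under 0.05, MCM1 alone passed, in Ioc3-KO and in all Ioc3 pools, beside 13.4% and 12.2% of genes. In the point mutants 0 of 7 passed, beside 5.78% (Ioc3-R739E/R742E) and 9.95% (Ioc3-Q251K/D252K) of genes. For the other 6 genes the log2 difference lay between -0.11 and 0.07 in every genotype.

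Genes whose products work with the members were read from 2 lists, 26 partners of the TATA-binding protein with 364 tested nucleosomes and 19 partners of the DNA-binding members with 336. In position, 0 of 364 and 7 of 336 were called in Ioc3-KO (limma), 4 downstream and 3 upstream, beside 1.30% of all nucleosomes. At an unadjusted p under 0.05, 62 of 364 and 60 of 336 passed, beside 18.1% of all. RIF1, whose product binds Rap1 at telomeres, had 2 called neighbours: one moved from 763, 764 and 765 bp in wild type to 817 bp in Ioc3-KO (53.0 bp, SE 1.73, limma, adjusted p = 0.0334) and the other from 922, 923 and 922 bp to 967 bp (44.7 bp, SE 1.56, limma, adjusted p = 0.0334). In the point mutants these 2 lay at 763 and 929 bp (Ioc3-R739E/R742E) and at 777 and 925 bp (Ioc3-Q251K/D252K). VID22, a partner of Tbf1, had a called nucleosome 56.0 bp upstream of its wild-type mean (1632, 1633 and 1631 bp to 1576 bp, SE 1.73, limma, adjusted p = 0.0334). It lay at 1600 bp in Ioc3-R739E/R742E, also upstream, and at 1644 bp in Ioc3-Q251K/D252K. YHP1, a repressor that works with Mcm1, had one 49.0 bp downstream (SE 1.73, limma, adjusted p = 0.0334), from 882 to 884 bp to 932 bp, with the point mutants at 868 and 942 bp. ARG81, which acts with Mcm1 on arginine genes, had one 130 bp downstream (SE 2.42, limma, adjusted p = 0.0334). It lay at 2119 bp in Ioc3-R739E/R742E and at 2108 bp in Ioc3-Q251K/D252K. At ARG81 the wild-type summits at 2047 to 2051 bp and the Ioc3-KO summit at 2179 bp are about as far apart as neighbouring nucleosomes, so 2 different ones may have been matched. In all Ioc3 pools, 1 of 364 and 1 of 336 were called, beside 0.184% of all nucleosomes. SPT7, a subunit of SAGA, moved from 1677, 1677 and 1692 bp to 1612, 1617 and 1611 bp (-68.7 bp, SE 4.74, limma, adjusted p = 0.0157), and ENV11 from 2265, 2260 and 2266 bp to 2306, 2297 and 2301 bp (37.7 bp, SE 2.99, limma, adjusted p = 0.0259).

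In height, 1 of 364 nucleosomes of the TATA-binding protein's partners was called in Ioc3-KO, 0 in Ioc3-R739E/R742E and 1 in Ioc3-Q251K/D252K (limma), beside 0.162%, 0.0162% and 0.767% of all nucleosomes. Both were weak calls 400 bp before a start codon. At TAF12, a TFIID and SAGA subunit, the height was 0.085, 0.083 and 0.066 in wild type and 0.29 in Ioc3-KO (log2 difference 2.0, SE 0.172, limma, adjusted p = 0.00349), on 6, 8 and 11 reads against 22. At NCB2, a subunit of the NC2 repressor of the TATA-binding protein, it was 0.045, 0.022 and 0.045 in wild type, 0.11 in Ioc3-KO, 0.14 in Ioc3-R739E/R742E and 0.15 in Ioc3-Q251K/D252K. All 3 Ioc3 pools were above wild type, and the call was made in Ioc3-Q251K/D252K (log2 difference 2.11, SE 0.344, limma, adjusted p = 0.0314), on 4 to 9 reads in wild type against 11, 11 and 12, and in all Ioc3 pools (log2 difference 1.98, SE 0.232, limma, adjusted p = 0.0088). In all Ioc3 pools this was the 1 of 364 called, and the IFH1 call at -467 bp was the 1 of 336 (log2 difference 1.01, SE 0.116, limma, adjusted p = 0.0088), beside 0.345% of all nucleosomes. Of the 336 nucleosomes of the other list, 20 were called in Ioc3-Q251K/D252K and all 20 were higher, 19 of them at SIR4, a silencing factor that Rap1 recruits, and the other a weak call at IFH1. The SIR4 differences ran over the whole gene. Its window held 7958 reads in that pool against 4095 to 4444 in wild type and 4451 and 4292 in the other genotypes. These 19 calls lie in the same stretch of chromosome IV and are not 19 independent results. Whether the rise in reads reached beyond SIR4, and its cause, was not tested.

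For each member, the 2 genes with the most similar wild-type profile were taken by the Pearson correlation of smoothed summit heights in 81 bins of 10 bp around the start codon, among 5997 other genes. Neighbouring bins share smoothing, so these correlations describe shape and carry no test. They were MAM3 (0.96) and PTR3 (0.95) for REB1, DED81 (0.95) and VPS53 (0.95) for RAP1, SRC1 (0.98) and SLX8 (0.98) for ABF1, and SER33 (0.97) and VMA5 (0.96) for CBF1. For MCM1 they were CWC23 (0.96) and YDR262W (0.94), for TBF1 TIF4631 (0.97) and BUD4 (0.95), and for SPT15 AVT4 (0.98) and ZDS1 (0.98). The median correlation of a member with the other 6 was above its median over all genes at 5 of 7, 0.28 beside 0.13 at REB1, 0.25 beside 0.09 at RAP1, 0.49 beside -0.14 at ABF1, 0.01 beside -0.26 at CBF1 and 0.61 beside -0.11 at TBF1. It was below it at MCM1 (-0.29 beside 0.20) and SPT15 (-0.16 beside 0.20).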

How the data were processed

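MNase-seq was made from 12 samples of S. cerevisiae BY4741 in 6 groups. Per the submitters' processing notes, Trimmomatic, Bowtie2 and SAMtools were used with sacCer3; the sources used here do not name the nucleosome caller. The authors deposited 1 position list per group, with both replicates joined. Per the file headers, the columns hold summit and mean read position (a score in bp), peak height (a signal of unstated scale), the SD of read positions and the count of reads. The mitochondrial genome was left out. A consensus of 72863 dyads came from the summits of all pools (Gaussian SD 20 bp, at least 100 bp apart), and 67770 had a summit within 70 bp in every pool. One of these had 0 reads in a pool and was not tested. Gaps were at least 200 bp wide, with a middle between -400 and 50 bp of the start codon. Genes came from the RefSeq table of the same build.

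limma 3.58.1 (lmFit, eBayes, R 4.3.3) was fitted to all nucleosomes or genes, with genotype as factor, or all Ioc3 pools against wild type. edgeR 4.0.16 (glmQLFit, glmQLFTest) was fitted to window reads of genes with at least 50 reads in 3 pools. Calls needed a Benjamini-Hochberg adjusted p under 0.05 over all features. A lone Ioc3 pool is assumed to vary like wild type, and p-values measure the spread between pools, which may be technical. All comparisons share the wild-type pools. The fits were tested on simulated data. The rest used pandas 2.3.3, scipy 1.17.1, numpy 2.4.6 and matplotlib 3.10.9 in Python 3.11.15. The text names all members, their -1 and +1 nucleosomes and the largest shift per gene and genotype beyond the wild-type range. It also names at most 4 called partner genes per list and comparison, taken by adjusted p, and the 2 most similar profiles. Nucleosomes +2 and +3 are described singly only at some members. REB1 at +4 and 637 bp, SPT15 +4 and 500 bp, and the ABF1 gap call were named after their values were seen. The members and lists were chosen with earlier results of these data known. Alternatives were another matching limit, smoothing, read minimum, centring, position measure, tool or gap rule, and leaving out each pool. No sequence was used.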

Additional observations from a re-analysis of the deposited data

How the results depend on the processing

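No paired analysis was possible because each list joins its group’s replicates. The count of called member nucleosomes or genes was 0 in each of 27 comparisons, and 207 of 224 alternatives gave the same count. In position, 1 nucleosome (REB1 +2, Ioc3-KO) was called when 1 nucleosome number was tested at a time, an alternative added after the data were seen. It used the numbering with weak calls kept, in which only REB1 and ABF1 of the members had a gap. In height, dropping nucleosomes with fewer than 20 reads in a pool, or weak calls (added after the data were seen), gave 1 call in Ioc3-KO and 2 in Ioc3-Q251K/D252K, and robust eBayes or log2 read counts gave 1 in Ioc3-Q251K/D252K. In fuzziness, the 20-read minimum gave 1 call in Ioc3-KO. Leaving out 1 pool gave from 0 to 1 calls in height for Ioc3-KO and for all Ioc3 pools (1 without Ioc3-R739E/R742E), from 0 to 2 for Ioc3-Q251K/D252K, and in fuzziness from 0 to 1 for Ioc3-KO and Ioc3-R739E/R742E and from 0 to 2 for Ioc3-Q251K/D252K. The 43 single differences named kept their direction in all 413 alternatives, but part of this was fixed in advance. The largest shifts were chosen outside the range of the 3 wild-type pools, so leaving out a wild-type pool could not reverse them. Robust eBayes leaves the estimated difference unchanged. In 16 of the 413 alternatives a difference newly passed the threshold. The cause of these changes was not tested, beyond fewer features tested under the read minimum. Over all nucleosomes, calls in position for Ioc3-KO ranged from 0 to 1227, against 884, and for all Ioc3 pools from 17 to 197, against 125. For fuzziness they ranged from 1 to 549 (1) in Ioc3-KO, 0 to 115 (0) in Ioc3-R739E/R742E and 2 to 148 (7) in Ioc3-Q251K/D252K. For heights they ranged from 53 to 1376 (110) in Ioc3-KO, 1 to 142 (11) in Ioc3-R739E/R742E, 276 to 1482 (520) in Ioc3-Q251K/D252K and 12 to 600 (234) in all Ioc3 pools. For window reads they ranged from 0 to 14 (3) in Ioc3-KO, 32 to 69 (60) in Ioc3-Q251K/D252K and 0 to 29 (0) in all Ioc3 pools. With a weak-call limit of 0.15 of the pool median, 5 of 7 members had a gap, CBF1 and TBF1 having none. Gaps with 0 to 36 reads in listed entries, where 0 means no entry, limit what can be said inside them.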
